A study of Rattus norvegicus with 10 samples.

Results

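Astrocytes hold the ion and water balance of nervous tissue with a small set of channels and carriers, clear glutamate from around neurons, and turn it into glutamine. The genes described here are 9 of that set: Aqp4, a water channel, Slc14a1, a urea transporter, Mlc1, a membrane protein that takes part in cell volume control, Slc1a2 and Slc1a3, the glutamate transporters also called GLT-1 and GLAST, Atp1b2, a beta subunit of the sodium-potassium pump, Glul, glutamine synthetase, Aldoc, aldolase C of glycolysis, and Aldh1l1, a folate enzyme. They were picked out by gene symbol, and the set was chosen with earlier results of these data known. All 9 were found, each under a single gene identifier, among 23487 genes counted, and all 9 passed the filter on low counts in each of the 5 comparisons made.

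The data are RNAseq of primary rat cells of the OL lineage, in 10 libraries, 2 for each of 5 groups. OPCs were obtained from cortices of Sprague-Dawley rat pups at P1 to P3 by shaking them off mixed glial cultures and letting other cells adhere, steps that can leave some astrocytes and microglia among them. In 3 groups the cells were differentiated and collected as OLs 5 days after transfection with the miR-145 mimic (OL miR-145), with mimics of miR-145 and miR-219 together (OL miR-145+miR-219), or with a control mimic (OL miR-ctl). In the other 2 groups the cells stayed OPCs and were collected 24 h after transfection with an inhibitor of miR-145 (OPC anti-miR-145) or a control inhibitor (OPC anti-miR-ctl). Every oligonucleotide was labelled as given at 30 nM. One label field of the OL miR-145 libraries names miR-219 as well, whereas their titles and descriptions name miR-145 alone, and they were grouped by the latter. The study's methods speak of lentivirus for the RNAseq cells while its results speak of mimics. Nothing in the labels says that the 2 libraries of a group came from separate cultures. A general statement of the study on replication, worded for mice, takes each N of primary cells as the cultures of a different animal, and the labels number these rat libraries N1 and N2. Whether that statement covers them is not given in the sources used here, so the p-values below are taken to measure only the spread between these libraries.

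Outside the astrocyte lineage the 9 genes are not equally specific. Glul is also known from mature OLs, Slc1a3 from glial progenitors, and Atp1b2 from several neural cells, whereas Aqp4, Mlc1 and Aldh1l1 are common astrocyte markers. A mature miRNA, and a mimic of it, acts through its seed, bases 2 to 8, which pairs with target transcripts. The mature rat sequence from RefSeq (build GRCr8, minus strand, chr18:57370033-57370055) is printed here because 3 of the 5 comparisons set a miR-145 mimic or inhibitor against its control, with the seed in capitals. Sites for this seed in the 9 transcripts were not analysed here.
rno-miR-145-5p: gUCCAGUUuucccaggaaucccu

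RefSeq start-site windows, from 250 bases before to 50 bases after a gene's start, were matched for all 9 genes, 14 windows in total. The core CAATG, bound by SOX proteins, was found on either strand in 7 of the 14 windows, belonging to 6 genes (Slc1a2, Aldh1l1, Mlc1, Glul, Aqp4 and Slc14a1), against 38.5% of all 33469 windows. The TCF/LEF core CTTTGA was found in 5 windows, against 16.1% of all windows. TTCNNNGAA (STAT) and TGANTCA (AP-1) were in 0 of the 14 windows and in 8.87% and 7.33% of all windows. Both strands were searched for each. These matches describe letters only. The windows of Mlc1 (chr7:121946649-121946948, minus strand) and Atp1b2 (chr10:54823659-54823958, minus strand), both build GRCr8 and not the build used for counting, are shown for the gene of largest difference under the miR-145 mimic and for 1 of the 2 genes called higher under the inhibitor, with CAATG or its reverse complement in capitals. The Mlc1 window holds 1 such core and the Atp1b2 window 0.
Mlc1: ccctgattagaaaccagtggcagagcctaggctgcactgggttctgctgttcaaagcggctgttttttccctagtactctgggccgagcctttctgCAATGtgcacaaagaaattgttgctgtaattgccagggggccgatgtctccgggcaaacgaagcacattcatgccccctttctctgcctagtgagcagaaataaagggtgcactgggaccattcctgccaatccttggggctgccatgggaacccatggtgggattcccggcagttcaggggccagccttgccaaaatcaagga
Atp1b2: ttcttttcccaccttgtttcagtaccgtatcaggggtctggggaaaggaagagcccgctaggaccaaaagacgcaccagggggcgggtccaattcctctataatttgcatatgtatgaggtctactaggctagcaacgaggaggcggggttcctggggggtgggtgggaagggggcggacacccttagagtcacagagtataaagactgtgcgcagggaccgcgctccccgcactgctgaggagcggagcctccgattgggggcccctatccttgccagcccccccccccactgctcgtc

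Counts assigned to genes summed to 33505706 to 42684206 per library, so depth limits only genes of very low level, among them Aqp4, Slc14a1, Mlc1 and Aldh1l1 in OPCs. Levels are given as CPM, a gene's counts per 1000000 counts after TMM scaling over all 10 libraries. Levels of different genes were not compared, since transcript lengths were not available here. The labelled cell types were borne out by their markers as far as OLs against OPCs go: 12 OL markers such as Mbp and Mag summed to 16622 to 36316 CPM in OL libraries and 1183 to 1426 CPM in OPC libraries, and 5 OPC markers to 295 to 453 and 1583 to 2026 CPM. Markers of other cells were measured in both. Gfap, the intermediate filament of astrocytes, stood at 4799 and 4179 CPM in the OL miR-ctl libraries and 8.23 and 7.81 CPM in the OPC anti-miR-ctl libraries. The sum of 15 microglia markers was 507 to 1328 CPM in OLs and 1234 to 2038 CPM in OPCs, with all 15 at 1 CPM or more in every group. Neuron markers summed to 379 to 757 CPM and endothelial markers to 3.03 to 27.7 CPM. In bulk RNA, fewer cells of a type and less RNA per cell cannot be told apart.

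**Figure D1:**
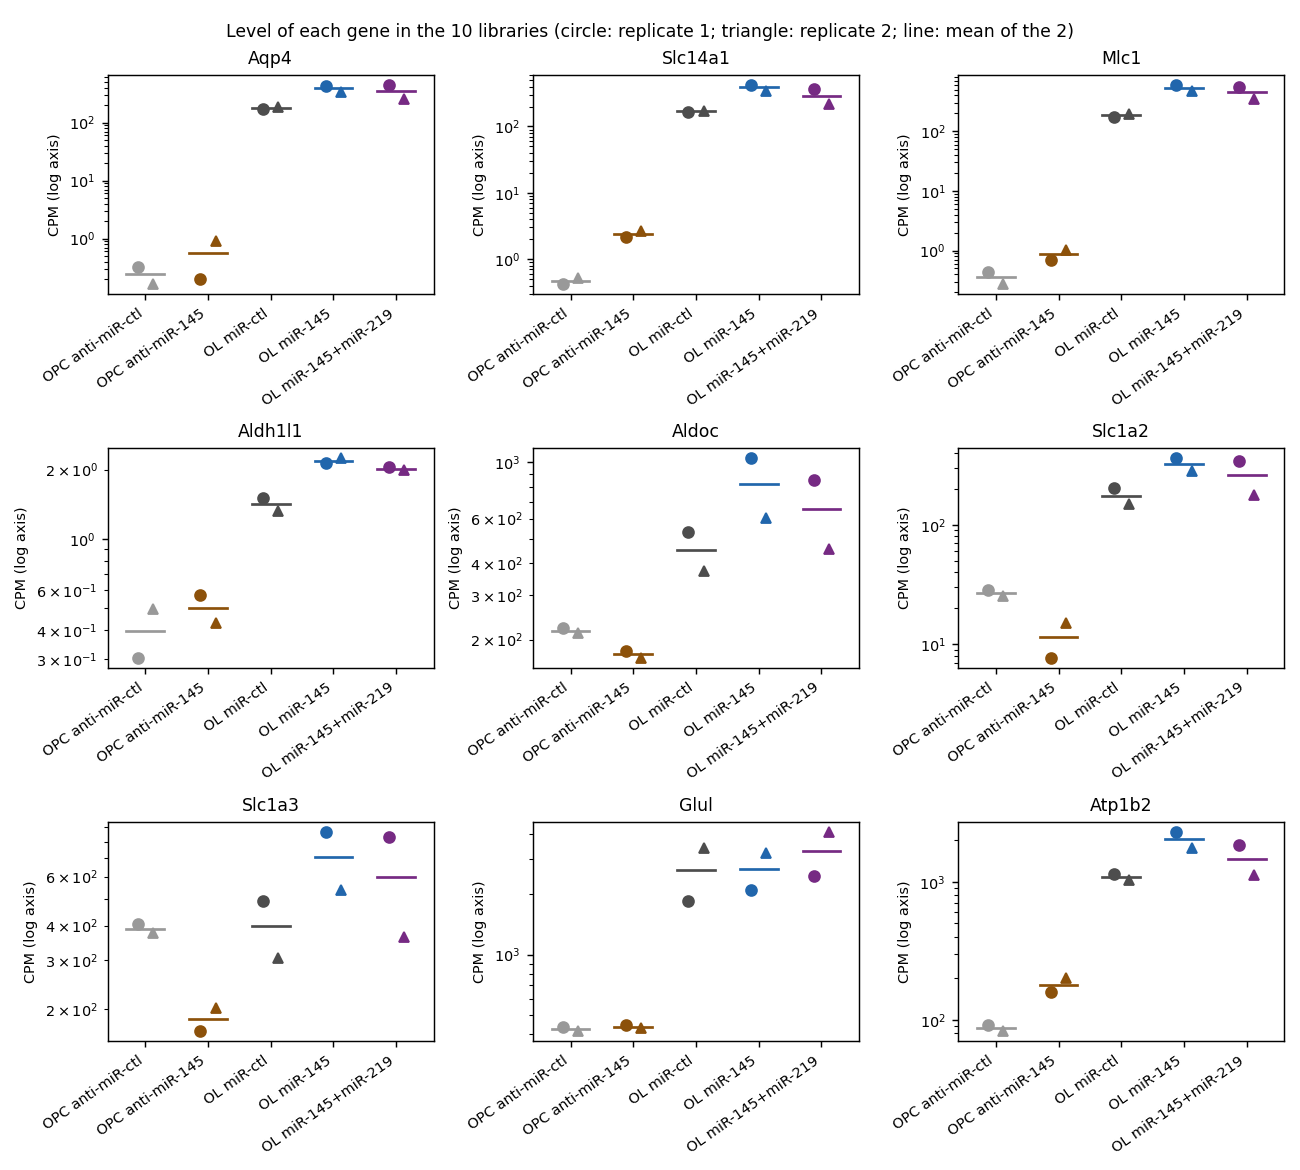
CPM (log axis, own scale in each panel) of the 9 genes in each of the 10 libraries, with replicate 1 as circles, replicate 2 as triangles and a line at the mean of the 2. Aqp4, Slc14a1 and Mlc1 lie below 3 CPM in OPCs and above 160 CPM in every OL library, while Slc1a3 overlaps between OL miR-ctl and OPC anti-miR-ctl.

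The 3 genes of water, urea and volume control lay under 3 CPM in every OPC library and above 160 CPM in every OL library. Aqp4 (ENSRNOG00000016043) was at 0.327 and 0.164 CPM in the OPC anti-miR-ctl libraries, from 14 and 6 counts, and at 168 and 186 CPM in the OL miR-ctl libraries. Its levels in OPC anti-miR-145 were 0.199 and 0.908 CPM, in OL miR-145 433 and 342 CPM and in OL miR-145+miR-219 453 and 252 CPM. The OL groups did not overlap with the OPC groups, and the OL miR-ctl libraries lay below all 4 libraries given a miR-145 mimic. The neighbours OL miR-145 and OL miR-145+miR-219 overlapped at the top of the order, and both OPC groups overlapped at its foot.

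Mlc1 (ENSRNOG00000032871), which causes a leukoencephalopathy with cysts when mutated in people, followed the same order. It stood at 0.444 and 0.274 CPM in OPC anti-miR-ctl, 0.695 and 1.02 CPM in OPC anti-miR-145, 176 and 198 CPM in OL miR-ctl, 610.1 and 474 CPM in OL miR-145 and 563 and 351 CPM in OL miR-145+miR-219. Only the OL miR-145 and OL miR-145+miR-219 libraries overlapped among neighbours. Slc14a1 (ENSRNOG00000016753) stood at 0.421 and 0.521 CPM in OPC anti-miR-ctl, 2.13 and 2.66 CPM in OPC anti-miR-145, 166 and 171 CPM in OL miR-ctl, 429 and 346 CPM in OL miR-145 and 366 and 217 CPM in OL miR-145+miR-219. Here too the 5 groups were separate apart from the pair given a miR-145 mimic.

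The glutamate transporters were present in both culture types. Slc1a2 (ENSRNOG00000005479) was at 28.5 and 25.6 CPM in OPC anti-miR-ctl, 7.77 and 15.1 CPM in OPC anti-miR-145, 202 and 148 CPM in OL miR-ctl, 360.5 and 280.1 CPM in OL miR-145 and 339.6 and 177 CPM in OL miR-145+miR-219. The OPC groups were separate from each other and from all OL groups, and OL miR-145+miR-219 overlapped both other OL groups. Slc1a3 (ENSRNOG00000016163) was at 404 and 376 CPM in OPC anti-miR-ctl, 167 and 203 CPM in OPC anti-miR-145, 490.1 and 305 CPM in OL miR-ctl, 870.2 and 536 CPM in OL miR-145 and 835 and 365 CPM in OL miR-145+miR-219. Its lowest group was OPC anti-miR-145, and OPC anti-miR-ctl overlapped OL miR-ctl. Atp1b2 (ENSRNOG00000011227), the pump subunit, was at 91.6 and 83.3 CPM in OPC anti-miR-ctl, 159 and 201 CPM in OPC anti-miR-145, 1133 and 1024 CPM in OL miR-ctl, 2304 and 1742 CPM in OL miR-145 and 1829.6 and 1114 CPM in OL miR-145+miR-219. The OPC groups did not overlap each other or the OL groups, and OL miR-145+miR-219 overlapped both other OL groups.

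Each of the 3 enzymes had a pattern of its own. Glul (ENSRNOG00000049560) was at 434 and 413 CPM in OPC anti-miR-ctl, 441 and 429 CPM in OPC anti-miR-145, 1856 and 3437 CPM in OL miR-ctl, 2114 and 3236 CPM in OL miR-145 and 2482 and 4133 CPM in OL miR-145+miR-219. All 3 OL groups overlapped, as did both OPC groups. Aldoc (ENSRNOG00000011452) was at 221 and 213 CPM in OPC anti-miR-ctl, 180.5 and 169.8 CPM in OPC anti-miR-145, 531 and 371 CPM in OL miR-ctl, 1041 and 602 CPM in OL miR-145 and 853 and 457 CPM in OL miR-145+miR-219. Its OPC groups were separate by a narrow margin, with the inhibitor group lower. Aldh1l1 (ENSRNOG00000047023), a gene often used to drive reporters in astrocytes, was scarce throughout. It was at 0.304 and 0.493 CPM in OPC anti-miR-ctl, 0.571 and 0.431 CPM in OPC anti-miR-145, 1.51 and 1.32 CPM in OL miR-ctl, 2.13 and 2.25 CPM in OL miR-145 and 2.05 and 1.99 CPM in OL miR-145+miR-219. Its OL groups were separate from each other and its OPC groups overlapped.

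Within the OL groups, the libraries also differed by replicate number. Slc1a3 was 1.61, 1.62 and 2.29 times as high in replicate 1 as in replicate 2 of OL miR-ctl, OL miR-145 and OL miR-145+miR-219. Aldoc, Slc1a2 and Atp1b2 were likewise higher in replicate 1 of all 3 OL groups. Glul went the other way, being 1.85, 1.53 and 1.67 times as high in replicate 2. So did the myelin gene Mbp, at 2.11, 1.71 and 1.92 times. In OPC anti-miR-ctl the same ratios of replicate 1 to replicate 2 were 1.07 for Slc1a3 and 1.05 for Glul. No label says what the replicate numbers mark.

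The comparison of the control groups asked which of the 9 genes differ between OLs and OPCs. It carries the medium, the time after transfection and the kind of control oligonucleotide along with differentiation, and these cannot be told apart. With edgeR's quasi-likelihood test and Benjamini-Hochberg adjustment over 15721 genes, 8 of the 9 genes were called higher in OL miR-ctl (adjusted p under 0.05), against 28.8% of all genes called higher and 28.7% called lower. Differences are log2 fold changes ± SE from here on. Aqp4 rose by 9.43 ± 0.207 on the log2 scale, Mlc1 by 8.99 ± 0.188 and Slc14a1 by 8.48 ± 0.130, with an adjusted p of 3.07e-05 each in edgeR. Atp1b2 rose by 3.62 ± 0.105, Slc1a2 by 2.69 ± 0.170 and Glul by 2.64 ± 0.304. Aldh1l1 and Aldoc rose least among those called, by 1.83 ± 0.370 and 1.05 ± 0.177. Slc1a3 was not called, with a log2 difference of 0.02 ± 0.224 and an edgeR adjusted p of 0.936.

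The value for Slc1a3 rested on single libraries. Without OL miR-ctl replicate 1 it was -0.36, without OL miR-ctl replicate 2 it was 0.32, and without OPC anti-miR-ctl replicate 2 it was -0.02. With a lone library left in a group, the test takes its spread from the other group alone. Aldh1l1 lost its call without OPC anti-miR-ctl replicate 1, at 1.50 with an edgeR adjusted p of 0.0829.

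Astrocyte genes outside the 9 moved alongside. Of 35 listed, 30 were found and tested, of which 26 were called higher in OL miR-ctl and 2 lower, with a median log2 difference of 2.51 beside 2.69 for the 9 genes and 0.01 for all genes. Gfap rose by 9.12 ± 0.146, Clu, which encodes the secreted chaperone clusterin, by 3.52 ± 0.0849, and Gja1, the gap junction protein connexin 43, by 6.49 ± 0.185. Mfge8 and Slc7a10 were the 2 called lower, and fell by 2.11 ± 0.0926 and 1.28 ± 0.389. Slc7a10 was scarce in both groups, at a mean of 1.45 CPM in OPC anti-miR-ctl and 0.592 CPM in OL miR-ctl. Whether astrocytes left in the cultures had a part in these differences was not tested. The remaining 5 of the list, Kcnj10, Hepacam, Gpc5, Prodh and Dio2, were not analysed here.

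**Figure D2:**
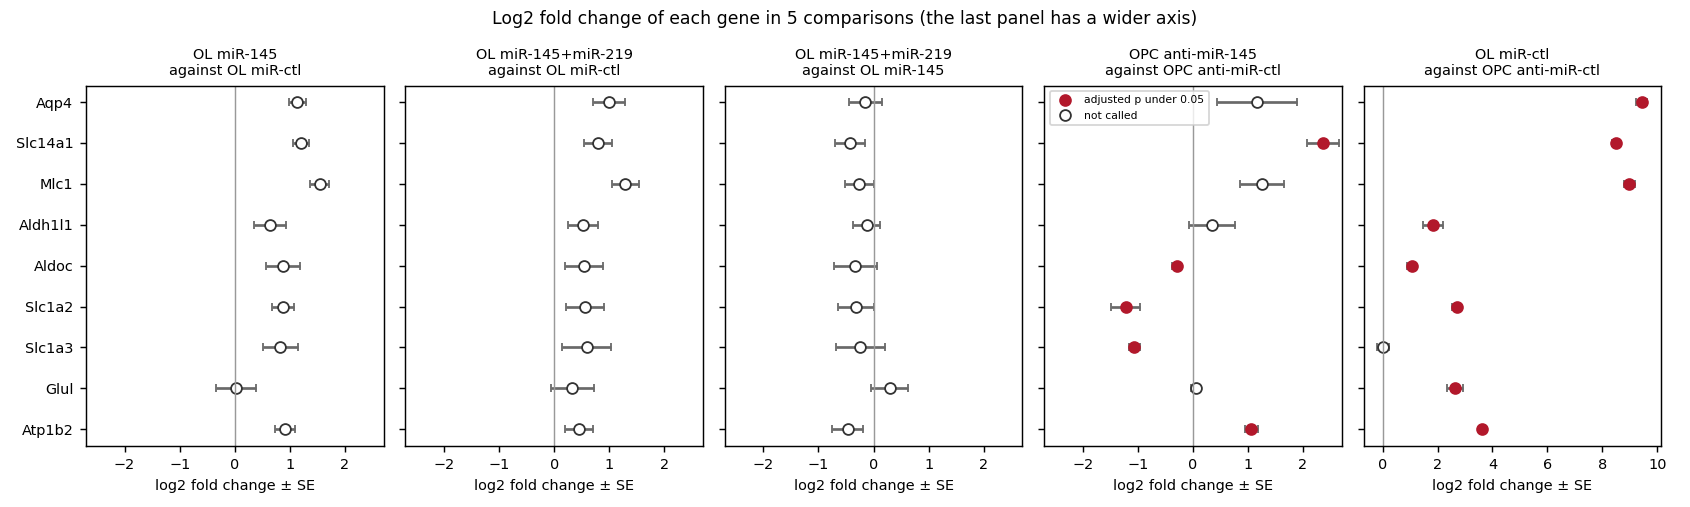
Log2 fold change with its SE for the 9 genes in the 5 comparisons, filled where edgeR's adjusted p was under 0.05 and open otherwise; the last panel has a wider axis. All points are open in the first 3 panels, the OPC panel has 2 filled points to the right and 3 to the left, and only Slc1a3 is open in the last.

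The miR-145 mimic in OLs was compared with its control to ask what more miR-145 does to these genes during differentiation. All 9 had a higher mean in OL miR-145 than in OL miR-ctl, and 8 of them, all but Glul, did not overlap between the groups, where 22.9% of all genes were higher without overlap. By the main test none was called. The largest difference was that of Mlc1, 1.54 ± 0.167 on the log2 scale with an edgeR adjusted p of 0.158. Slc14a1 differed by 1.20 ± 0.143 and Aqp4 by 1.14 ± 0.155, both at the same adjusted p. Atp1b2 (0.91 ± 0.183), Slc1a2 (0.88 ± 0.202), Aldoc (0.87 ± 0.308), Slc1a3 (0.83 ± 0.316) and Aldh1l1 (0.64 ± 0.286) followed, with edgeR adjusted p from 0.167 to 0.41. Glul differed by 0.02 ± 0.357 with an edgeR adjusted p of 0.984.

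The tools differed in their calls here. edgeR called 0 of 15461 genes (0%), and its unadjusted p was under 0.05 for 2067 genes (13.4%), 7 of the 9 among them. DESeq2 gave 637 calls (4.12%) and 5 of the 9 among these: Mlc1 (DESeq2 adjusted p = 3.33e-12), Slc14a1 (5.16e-09), Aqp4 (4.23e-07), Atp1b2 (0.000328) and Slc1a2 (0.00654). The fold changes themselves were nearly equal in both tools, at 1.54 and 1.54 for Mlc1. Only that of Glul changed sign when a library was left out, at -0.32 without OL miR-145 replicate 2 and -0.35 without OL miR-ctl replicate 1. Those of Aldoc and Slc1a3 were smaller, at 0.43 and 0.44, without OL miR-145 replicate 1, and that of Slc1a3 was 0.52 without OL miR-ctl replicate 2.

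The other astrocyte genes had higher means under the mimic as well, 30 of 30 tested, with 23 not overlapping and a median log2 difference of 0.95 beside 0.88 for the 9 genes and -0.01 for all genes. None was called by edgeR, 22 had an unadjusted p under 0.05, and DESeq2 called 19. Over all genes, 22.9% were higher without overlap, 13.4% had an unadjusted p under 0.05 and DESeq2 called 4.12%. The smallest p belonged to Sox9, a glial transcription factor, at 0.96 ± 0.126, Agt, the angiotensin precursor, at 1.62 ± 0.229, and Fabp7, a lipid-binding protein of radial glia and astrocytes, at 1.04 ± 0.158. Gfap stood at 9708 and 6709 CPM in OL miR-145 and 4799 and 4179 CPM in OL miR-ctl. The 5 fibroblast and mural markers tested were all higher without overlap, their list summing to 50.7 to 85.3 CPM against 21.0 to 30.7 CPM. Of 15 microglia markers 14 had a higher mean, 4 of them without overlap, where 22.9% of all genes were. Their list summed to 551 and 1328 CPM in OL miR-145 and 533 and 775 CPM in OL miR-ctl. Thus 1 OL miR-145 library lay within the control range and the other above it. Of the 12 OL markers, 8 had a lower mean. The part of a changed share of cells in the differences of the 9 genes was not tested.

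**Figure D3:**
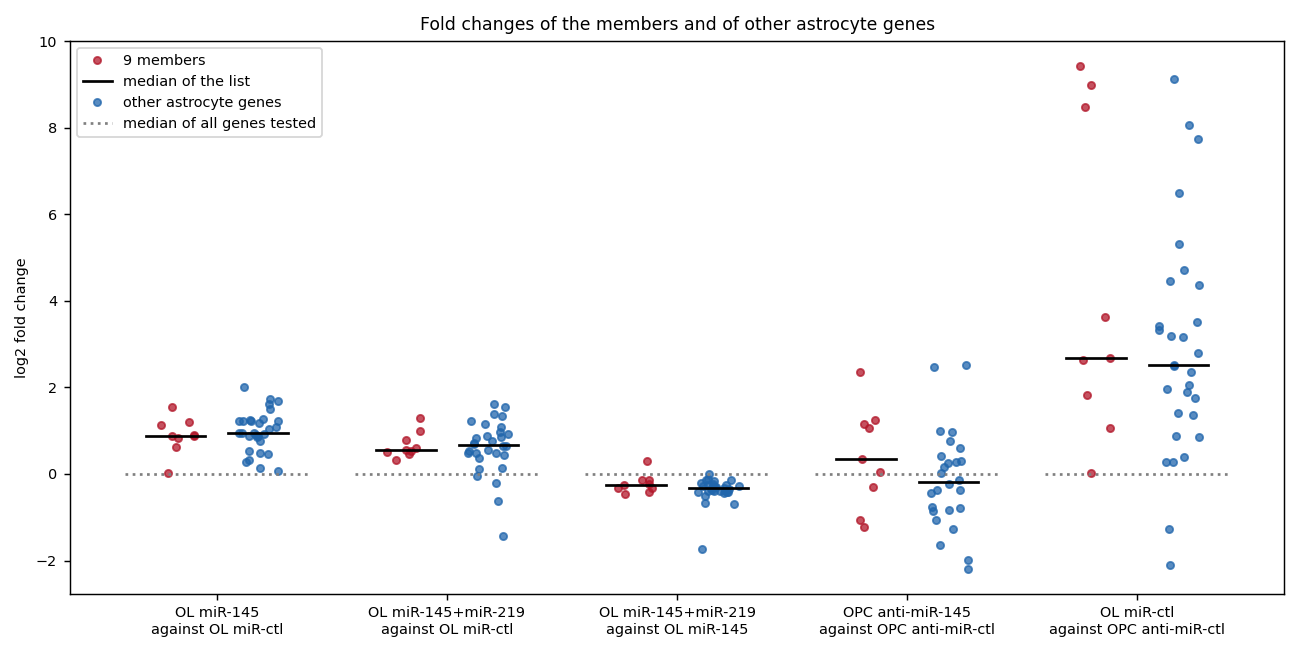
Log2 fold changes of the 9 genes (red) and of the other astrocyte genes tested (blue) in the 5 comparisons, with black lines at each list's median and a dotted line at the median of all genes tested. Under the miR-145 mimic every point of both lists is above 0, whereas in the OPC comparison both lists spread to both sides.

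With both mimics together the difference of Mlc1 from control was again the largest and that of Glul the smallest of the 9. All 9 had a higher mean in OL miR-145+miR-219 than in OL miR-ctl, from 0.33 ± 0.388 for Glul to 1.29 ± 0.244 for Mlc1 on the log2 scale, and 4 of them (Aqp4, Slc14a1, Mlc1 and Aldh1l1) did not overlap, against 17.3% of all genes higher without overlap. Aqp4 differed by 1.00 ± 0.287 and Slc14a1 by 0.79 ± 0.256. None was called by edgeR, where 0 of 15436 genes (0%) were, and the unadjusted p was under 0.05 for 956 genes (6.19%), 3 of the 9 among them. With DESeq2 the calls were 106 genes (0.687%), of which Mlc1 was the only one of the 9 (DESeq2 adjusted p = 0.000519). Several of these values rested on OL miR-145+miR-219 replicate 1, without which Aqp4 was at 0.52, Slc14a1 at 0.37, Atp1b2 at 0.06, Aldoc at 0.03, Slc1a2 at 0.03 and Slc1a3 at -0.11. Without OL miR-ctl replicate 2, Aldoc, Slc1a2 and Slc1a3 were at 0.30, 0.35 and 0.29. Glul was at -0.10 without OL miR-145+miR-219 replicate 2 and -0.04 without OL miR-ctl replicate 1. The OL miR-ctl libraries are shared with the comparison before, so the 2 sets of values are not independent. Of the 30 other astrocyte genes 26 had a higher mean (median 0.66), none called by edgeR and 5 by DESeq2, with the smallest p for Agt (1.35 ± 0.236), Ntsr2, a neurotensin receptor (1.62 ± 0.323), and Ednrb, an endothelin receptor (1.23 ± 0.335). Microglia markers had a higher mean in 11 of 15, OL markers in 7 of 12 and fibroblast and mural markers in 4 of 4 tested.

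The direct comparison of both mimics with miR-145 alone gave no call for any of the 9 genes. Log2 differences ran from -0.47 ± 0.285 for Atp1b2 to 0.29 ± 0.341 for Glul, which was the 1 gene with a higher mean. Only Aldh1l1 was lower without overlap (-0.13 ± 0.247), 1 of 9, where 11.2% of all genes were. edgeR called 0 of 15501 genes (0%), 228 (1.47%) had an unadjusted p under 0.05, none of the 9 among them, and DESeq2 called 9 genes (0.0581%), again none of the 9. The signs were not stable. Without OL miR-145+miR-219 replicate 2, Aqp4 (0.21), Mlc1 (0.04), Aldoc (0.04), Slc1a2 (0.07) and Slc1a3 (0.24) turned positive and Glul turned negative (-0.12), and without OL miR-145 replicate 1, Aqp4 (0.02), Aldoc (0.10) and Slc1a3 (0.14) turned positive. The 30 other astrocyte genes all had a lower mean (median -0.33), none called by edgeR or DESeq2 and 2 with an unadjusted p under 0.05. The smallest p belonged to Slc39a12, a zinc transporter (-0.38 ± 0.137), Etnppl, a lyase of phosphoethanolamine at under 1 CPM (-1.74 ± 0.640), and Sox9 (-0.42 ± 0.170). Markers of other cells moved alongside, with a lower mean for 15 of 15 microglia markers (median -0.48) and a higher one for 12 of 12 OL markers (median 0.37), none called by either tool. Their part in the lower astrocyte means was not tested.

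Inhibiting miR-145 in OPCs for 24 h split the 9 genes. This comparison asks what less miR-145 does before differentiation begins. edgeR called 2 of the 9 higher and 3 lower in OPC anti-miR-145, where 12.1% of 15496 genes were called higher and 16.0% lower. Slc14a1 rose by 2.36 ± 0.282 on the log2 scale (edgeR adjusted p = 0.00117), to a level that was still far under that of OLs. Its counts were low, at 18 and 19 in the OPC anti-miR-ctl libraries and 86 and 117 in the OPC anti-miR-145 libraries. Atp1b2 rose by 1.06 ± 0.118 (edgeR adjusted p = 0.000858), from a mean of 87.4 to 180.0 CPM. Both glutamate transporters fell, Slc1a3 from a mean of 390.0 to 185 CPM (-1.06 ± 0.105, edgeR adjusted p = 0.000492) and Slc1a2 from 27.0 to 11.5 CPM (-1.22 ± 0.262, edgeR adjusted p = 0.0144). Aldoc fell by 0.29 ± 0.0827 on the log2 scale (edgeR adjusted p = 0.0378).

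The other 4 were not called. Mlc1 had a log2 difference of 1.25 ± 0.396 (edgeR adjusted p = 0.0551), Aqp4 of 1.16 ± 0.726, Aldh1l1 of 0.35 ± 0.416 and Glul of 0.05 ± 0.0805. Both Aqp4 libraries of the inhibitor group differed widely, at 8 and 40 counts, and without replicate 2 of that group the difference was -0.30. Without OPC anti-miR-145 replicate 1, Aqp4 was at 1.85 and Mlc1 at 1.49. The call of Aldoc was lost without OPC anti-miR-ctl replicate 1 (edgeR adjusted p = 0.268) or replicate 2 (0.179). With all 5 groups in a single edgeR fit, the 3 genes that fell were no longer called, at adjusted p of 0.601 for Aldoc, 0.0602 for Slc1a2 and 0.105 for Slc1a3, with nearly the same fold changes.

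Other astrocyte genes were split in OPCs too. Of 26 tested, 6 were called higher and 7 lower, with a median log2 difference of -0.18 beside 0.35 for the 9 genes and 0.0045 for all genes. Over all genes 12.1% were called higher and 16.0% lower. Sox9 rose by 2.46 ± 0.0939, Gfap by 2.53 ± 0.130 and Clu by 0.97 ± 0.0867. Sparcl1, a matricellular protein secreted by astrocytes, fell by 2.00 ± 0.111, Ednrb by 2.19 ± 0.144 and the calcium-binding protein gene S100b by 0.85 ± 0.0817 on the log2 scale. Gfap thus stood at 40.7 and 51.1 CPM in the inhibitor libraries against 8.23 and 7.81 CPM in the controls, with no overlap. Microglia markers were split, with 7 of 15 called higher under the inhibitor, among them the complement genes C1qb (1.34 ± 0.117) and C1qc (1.31 ± 0.118), and 7 called lower, among them Itgam (-1.58 ± 0.103), Ptprc (-1.52 ± 0.119) and Lyz2 (-1.83 ± 0.220). Their sum was 1234 to 1622 CPM in OPC anti-miR-145 and 1865 to 2038 CPM in OPC anti-miR-ctl, and Lyz2 fell from a mean of 449 to 125 CPM. Summed fibroblast and mural markers stayed at or under 5.16 CPM in every OPC library. The part of microglia in the fall of Slc1a2 and Slc1a3 was not tested.

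**Figure D4:**
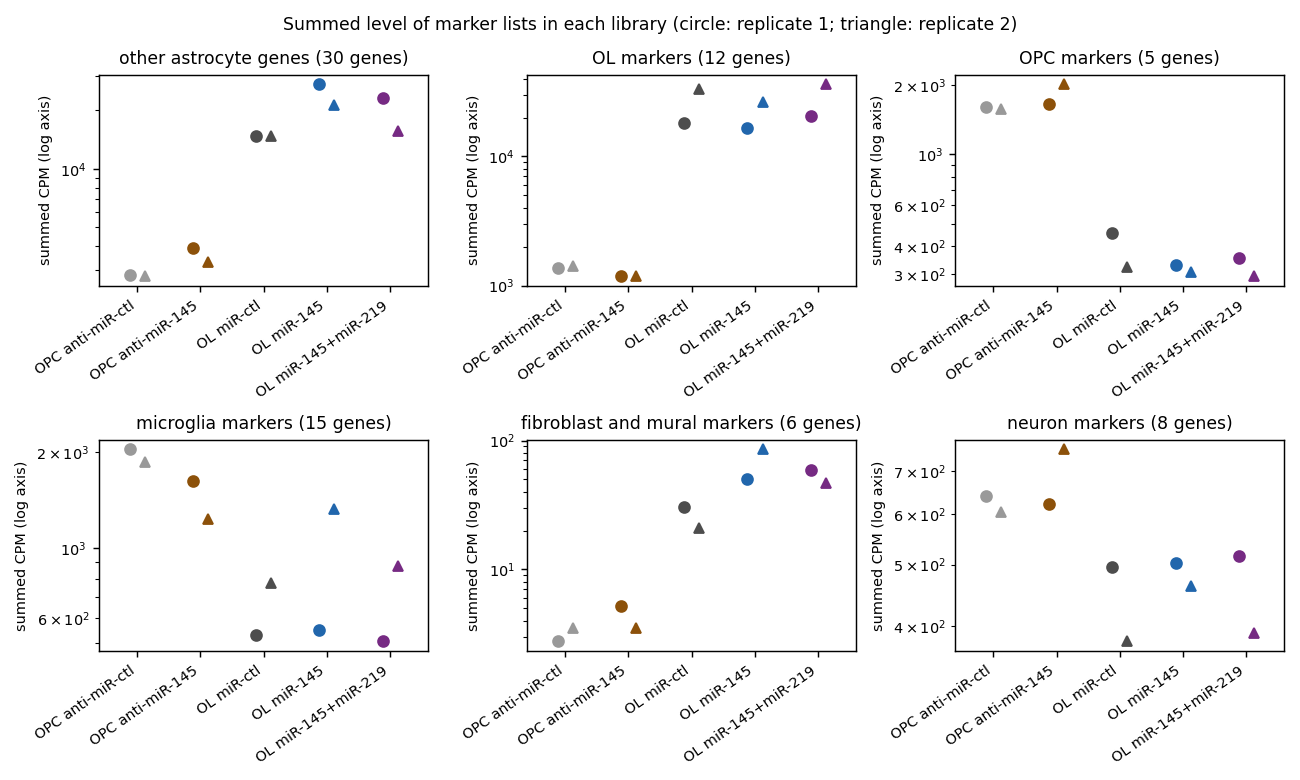
Summed CPM (log axis) of 6 marker lists in each library, with replicate 1 as circles and replicate 2 as triangles. The other astrocyte genes sum to 14690.3 to 14835 CPM in OL miR-ctl and 21243 to 27355 CPM in OL miR-145, OL markers are higher in replicate 2 of all 3 OL groups, and the sum of the microglia markers is highest in OPC anti-miR-ctl.

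The genes that work with Aqp4 and Mlc1 in water, potassium and volume balance were followed as a list of 12, of which 9 were tested. From OPC to OL controls, 7 were called higher and 0 lower by edgeR, against 28.8% and 28.7% of all genes, with the smallest p for Dmd, dystrophin (3.05 ± 0.122), Gpr37l1, a receptor of astrocytes (1.40 ± 0.0928), and Dtna, dystrobrevin (0.57 ± 0.0727). Dystrophin and its partners anchor the Aqp4 channel in the membrane. Under the miR-145 mimic none was called by edgeR, 6 had an unadjusted p under 0.05 (13.4% of all genes) and DESeq2 called 5 (4.12% of all genes). Among the smallest p were those of Dmd (1.28 ± 0.137) and the potassium channel gene Kcnj16 (2.01 ± 0.344). With both mimics none was called by edgeR or DESeq2 and 3 had an unadjusted p under 0.05 (6.19% of all genes). Dtna was at 0.50 ± 0.157 there and Dmd at 0.88 ± 0.280. Both mimics against miR-145 alone gave no call by either tool and 1 unadjusted p under 0.05 (1.47% of all genes). There Lrrc8a, a volume-regulated anion channel, was at -0.28 ± 0.107, Gpr37l1 at -0.33 ± 0.196 and Trpv4, a cation channel, at -0.65 ± 0.400. In OPCs, where 16.0% of all genes were called lower, Dmd alone among these 9 partners was called, and fell under the inhibitor (-1.26 ± 0.230, edgeR adjusted p = 0.00742), at levels of 3.02 and 3.21 CPM in control and 1.09 and 1.48 CPM in inhibitor libraries.

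Genes of the glutamate and glutamine cycle, which handle the substrates of Slc1a2, Slc1a3 and Glul, were tested for 12 of 14 listed. From OPC to OL controls, 2 rose, Glud1, glutamate dehydrogenase (1.42 ± 0.0809), and Got2, mitochondrial aspartate aminotransferase (0.31 ± 0.101), and 5 fell, with the smallest p for Slc7a11, the cystine-glutamate exchanger (-3.39 ± 0.180), and Slc38a3, a glutamine transporter (-1.25 ± 0.103). Both counts stand against 28.8% of all genes called higher and 28.7% lower. The inhibitor in OPCs raised 4, with Aldh4a1 (0.68 ± 0.0787), Got1 (0.68 ± 0.0893) and Slc38a7 (0.28 ± 0.0797) at the smallest p, and lowered 2, Slc7a11 (-1.86 ± 0.121) and Slc38a3 (-0.34 ± 0.0801), against 12.1% and 16.0% of all genes. Slc7a11 was at 38.1 and 35.8 CPM in OPC anti-miR-ctl and 8.99 and 11.2 CPM in OPC anti-miR-145, without overlap. In OLs none of the 12 was called by edgeR. Under miR-145, 5 had an unadjusted p under 0.05 (13.4% of all genes) and DESeq2 called 1 (4.12% of all genes). The smallest p were those of Slc38a3 (1.59 ± 0.361), Slc38a1 (0.41 ± 0.103) and Oat, ornithine aminotransferase (0.72 ± 0.219). With both mimics these counts were 2 and 0, against 6.19% and 0.687% of all genes. The smallest p there were those of Slc38a1 (0.43 ± 0.112), Slc38a3 (1.17 ± 0.391) and Glud1 (0.39 ± 0.214). For both mimics against miR-145 alone the counts were 0 and 0, with the smallest p for Aldh4a1 (-0.30 ± 0.196), Slc38a2 (0.22 ± 0.167) and Got2 (-0.12 ± 0.110).

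Aldh1l1 sits in folate metabolism, and 16 of 17 folate enzymes and carriers were tested. From OPC to OL controls 2 rose, among them Mthfs (0.97 ± 0.209), and 6 fell, against 28.8% and 28.7% of all genes, with the smallest p for Shmt1 (-1.55 ± 0.0920) and Tyms, thymidylate synthase (-2.59 ± 0.183), which serves the making of DNA precursors. Under the inhibitor 4 rose, with the smallest p for Aldh1l2, the mitochondrial relative of Aldh1l1 (0.93 ± 0.132), Slc19a1 (0.60 ± 0.103) and Shmt2 (0.59 ± 0.105), and 3 fell, Shmt1 (-0.72 ± 0.0927), Tyms (-0.57 ± 0.0987) and Mtr (-0.47 ± 0.121), against 12.1% and 16.0% of all genes. In OLs none was called by edgeR or DESeq2 in the 3 comparisons, and 1, 0 and 0 had an unadjusted p under 0.05 for miR-145, for both mimics and for both against miR-145 alone. The smallest p were those of Tyms (0.58 ± 0.230), Shmt2 (-0.24 ± 0.106) and Shmt1 (0.37 ± 0.168) under miR-145. For both mimics they were Shmt1 (0.31 ± 0.191), Shmt2 (-0.15 ± 0.107) and Tyms (0.42 ± 0.290), and for both against miR-145 alone Mthfd2 (0.19 ± 0.146), Mthfd1l (0.24 ± 0.189) and Gart (-0.12 ± 0.104).

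Family members set beside the 9 genes did not move with them as a block. Slc1a1, the transporter EAAC1, was not called in any comparison. It had a log2 difference of -0.67 ± 0.179 under miR-145, where Slc1a2 and Slc1a3 had positive ones, and of 0.09 ± 0.0848 under the inhibitor, where both fell. Slc1a5, a transporter of neutral amino acids, rose by 1.68 ± 0.116 under the inhibitor (edgeR adjusted p = 0.000132), fell from OPC to OL controls (-2.55 ± 0.303) and was at -0.04 under miR-145, and Slc1a4 fell from OPC to OL controls (-1.31 ± 0.0781) with -0.12 under the inhibitor.

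Among the other beta subunits of the pump, Atp1b1 rose from OPC to OL controls (1.21 ± 0.0769) and was at 0.23 ± 0.0808 under the inhibitor, not called, while Atp1b3 fell under the inhibitor (-0.33 ± 0.0927) and was not called between controls (0.09 ± 0.129). Aldoa, the common aldolase, was not called in any comparison, with -0.23 ± 0.0795 between controls where Aldoc rose. Aqp11 rose between controls (1.30 ± 0.317) at levels of 2.09 and 3.26 CPM in OL miR-ctl.

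Over the 10 libraries, the genes with the most similar profile of log2(CPM + 1) among 12522 genes were, for Aqp4, Mlc1 (r = 0.999), Tmem47 (r = 0.998), Daam2 (r = 0.998). For Slc1a3 they were Zfp423 (r = 0.982), Nim1k (r = 0.972), Nr2e1 (r = 0.971). For Glul they were Lpar1 (r = 0.999), Bicd2 (r = 0.998), Sept4 (r = 0.998). These r are Pearson correlations over 10 libraries in 5 groups of 2, and for Aqp4 and Glul the libraries fall into a low OPC cluster and a high OL cluster. The order depended on the measure. By rank (Spearman) correlation, Mlc1 and Daam2 ranked 20 and Tmem47 173 for Aqp4. For Slc1a3, Zfp423 ranked 9, Nim1k 217 and Nr2e1 4. For Glul, Lpar1 ranked 176.5 and Bicd2 and Sept4 347.5. Lpar1 and Sept4 are known from myelinating OLs. Between pairs of the 9 genes r ran from 0.541 to 0.999, with a median of 0.930.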

How the data were processed

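The 9 genes and all lists were chosen with earlier results of these data known. The authors prepared stranded mRNA libraries and deposited estimated counts per gene, obtained with Salmon 0.12.0 on rat transcripts (build Rnor6.0) and tximport, not normalized. From the DESeq2 table that the authors deposited for miR-145 and its control (mean normalized signal, log2 fold change, Wald score, p-values) only the gene symbols were used. Counts were rounded. Each comparison was fitted on its own 4 libraries in edgeR 4.0.16 (R 4.3.3; TMM, estimateDisp, glmQLFit, glmQLFTest, two-sided) with a minimum of 5 counts per gene in no fewer than 2 libraries, Benjamini-Hochberg adjustment over all genes tested and a call at 0.05. The SE is the size of the log2 fold change divided by the square root of F. DESeq2 1.42.0 (Wald test, independent filtering off), DESeq2's size factors, other filters, a single fit of all groups, a term for the replicate number and leaving out each library were alternatives. On simulated counts with 200 changed genes of 15253, edgeR recovered 163 with 22 false calls and DESeq2 174 with 47 for OL miR-145. For OPC anti-miR-145, with 200 of 15313 changed, edgeR recovered 190 with 30 false calls and DESeq2 189 with 23. The simulated libraries were drawn independently, with changes only in genes above a minimum mean count. A correlation of same-numbered libraries was not simulated, so these counts do not give the power in the real comparisons. Named genes are all 9, up to 3 called higher and 3 lower of smallest p per list (3 of smallest p where none was called), family members with a mean of at least 1 CPM, and 3 nearest profiles each of Aqp4, Slc1a3 and Glul. Some genes that this rule names are not reported here.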

Additional observations from a re-analysis of the deposited data

How the results depend on the processing

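Of 448 fold changes of the 9 genes recomputed under the alternatives, 430 kept their direction, and 17 of the 18 that did not came from leaving out a library. DESeq2 called 637, 106 and 9 genes for miR-145, for both mimics and for both against miR-145 alone. Of the 9 it called 5, 1 and 0, where the main edgeR fit called none. A single fit of all groups called 79 genes and 1 of the 9 (Mlc1) for miR-145, and 2657 genes and 2 of the 9 in OPCs in place of 4348 and 5. Without a filter on low counts, 1 gene was called for both mimics. With a library left out, no gene was called in the 3 OL comparisons, between 2424 and 7130 genes and 4 to 7 of the 9 in OPCs, and between 5016 and 10591 genes and 7 to 9 of the 9 between controls. The lone library left in a group is then assumed to vary like the other group. The cause of these differences was not tested. Over the alternatives that kept all libraries, adjusted p for miR-145 ran from 1.81e-21 to 0.159 for Mlc1, 5.29e-15 to 0.159 for Slc14a1 and 1.51e-13 to 0.159 for Aqp4. It ran from 1.15e-09 to 0.171 for Atp1b2 and 2.92e-09 to 0.225 for Slc1a2. Each of these lowest values came from edgeR with the replicate block described below. DESeq2 gave 3.33e-12 for Mlc1. For Mlc1 with both mimics the adjusted p ran from 0.000519, in DESeq2, to 0.796. In OPCs it ran from 0.0169 to 0.601 for Aldoc, 1.01e-05 to 0.0602 for Slc1a2 and 1.27e-17 to 0.105 for Slc1a3.

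The fold changes that turned sign with a library left out ranged as follows over the libraries left out. For miR-145, Glul ran from -0.35 to 0.53 on the log2 scale. For both mimics, Slc1a3 ran from -0.11 to 1.06 and Glul from -0.10 to 0.83. For both mimics against miR-145 alone, the ranges were -0.63 to 0.21 for Aqp4, -0.63 to 0.042 for Mlc1, -0.85 to 0.10 for Aldoc, -0.86 to 0.073 for Slc1a2, -0.95 to 0.24 for Slc1a3 and -0.12 to 0.65 for Glul. In OPCs Aqp4 ran from -0.30 to 1.85, and between controls Slc1a3 ran from -0.36 to 0.32.

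With a term for the replicate number (replicate block), 2272, 132 and 184 genes were called in the OL comparisons, in the same order, with 7, 1 and 1 of the 9, and 4 of the 9 in OPCs (Aldoc lost). Slc1a3 between controls was at -0.015. Deviations of same-numbered libraries correlated at 0.403, 0.467 and 0.632 in the OL comparisons, -0.152 in OPCs and 0.0679 between controls. Neither the labels nor the methods say that same-numbered libraries share a culture, and with 2 numbers these correlations are a hint from the data, not the design. Library-size CPM moved the group means of the 9 genes by -3.69% to 6.91%. With 2 libraries per group no outlier could be tested.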
